A study of Homo sapiens with 12 samples.

Results

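Ubiquitin-specific proteases, the USP genes, were examined in lists of N4-acetylcytidine (ac4C) peaks from SW620, a human colorectal cancer cell line. The genes were chosen by name alone, as every protein-coding gene outside chromosome Y whose symbol is USP followed by a number, which gave 76 of 19974 protein-coding genes. They comprised 50 single USP genes, 25 copies of the USP17L tandem repeat, and USP6NL, which shares the letters of the name but codes for a GTPase-activating protein and not a protease. The data came from acRIP-seq, in which total RNA is fragmented and the pieces bound by an antibody against ac4C are sequenced, and a peak marks a stretch where such pieces pile up. The 3 control libraries came from SW620 cells carrying a control shRNA and the 3 NAT10-knockdown libraries from SW620 cells carrying an shRNA against NAT10, the enzyme that writes ac4C. Both were lentiviral lines from the same parental cells and received no other treatment according to the labels, which do not say which of the study's NAT10 shRNAs was used or whether the replicates were separate cultures. Any p-value therefore measures only the spread between these libraries.

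Ubiquitin is a small protein that cells attach to other proteins to mark them for degradation, sorting or altered activity, and deubiquitinases take it off again. The USP enzymes form the largest deubiquitinase family, are cysteine proteases with a shared catalytic fold, and act in p53 control, DNA repair, chromatin, membrane traffic, proteasome function and growth factor signaling. Several have been studied as drug targets in cancer, including USP7, which removes ubiquitin from MDM2 and p53.

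A peak was given to a gene when its midpoint lay in the gene's GRCh38 span on the same strand. The lists hold 17877 to 28752 peaks per library, with the highest number in knockdown replicate 1, and state neither reads nor coverage, which leaves the sequencing depth unknown. The input libraries were not used here, so a peak that appears or disappears cannot be told apart from a change in the amount of that RNA. NAT10 itself had 1, 0 and 2 control peaks and 2, 0 and 1 knockdown peaks, which does not measure its mRNA or the knockdown. Peaks lay in 6 of 8 epithelial and intestinal marker genes, including EPCAM and CDX2 in all 6 libraries, and in 1 of 6 genes of other cell types, COL1A1, with 0, 1 and 3 peaks in the control and 2, 0 and 0 in the knockdown libraries.

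Many of the peaks that recurred in USP genes sat at the very start of the gene, and some reached into the bases before it. The 5 genes printed here had a peak in all 6 libraries that began 60 or more bases before the outermost annotated start. Each sequence is the 250 bases that precede that start in GRCh38.p14 (RefSeq), 5′ to 3′ on the strand of the gene, with the bases that the peaks of all 6 libraries cover in capitals. USP47, which acts in base excision repair, is shown at chr11:11841722-11841971 on the plus strand. USP3, a histone H2A deubiquitinase, is at chr15:63504343-63504592 on the plus strand. USP14, which trims ubiquitin chains at the proteasome, is at chr18:158307-158556 on the plus strand. USP13, a relative of the chain-disassembling enzyme USP5, is at chr3:179652790-179653039 on the plus strand. USP11, a relative of USP4 and USP15, is at chrX:47232759-47233008 on the plus strand.
USP47: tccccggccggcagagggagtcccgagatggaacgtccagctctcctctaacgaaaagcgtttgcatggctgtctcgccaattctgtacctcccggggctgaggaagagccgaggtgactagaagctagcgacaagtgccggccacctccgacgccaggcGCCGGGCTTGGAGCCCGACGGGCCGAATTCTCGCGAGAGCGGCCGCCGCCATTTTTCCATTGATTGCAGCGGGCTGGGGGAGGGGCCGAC
USP3: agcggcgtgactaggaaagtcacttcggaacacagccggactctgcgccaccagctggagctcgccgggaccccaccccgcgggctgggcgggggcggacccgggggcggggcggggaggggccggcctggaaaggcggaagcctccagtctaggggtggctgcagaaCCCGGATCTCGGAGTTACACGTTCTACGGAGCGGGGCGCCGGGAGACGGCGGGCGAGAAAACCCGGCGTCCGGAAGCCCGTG
USP14: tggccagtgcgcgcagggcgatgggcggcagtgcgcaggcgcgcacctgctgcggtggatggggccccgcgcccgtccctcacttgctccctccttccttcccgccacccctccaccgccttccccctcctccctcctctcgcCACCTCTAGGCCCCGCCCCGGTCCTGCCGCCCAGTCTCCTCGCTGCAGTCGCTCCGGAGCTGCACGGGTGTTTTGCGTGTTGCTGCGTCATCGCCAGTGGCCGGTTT
USP13: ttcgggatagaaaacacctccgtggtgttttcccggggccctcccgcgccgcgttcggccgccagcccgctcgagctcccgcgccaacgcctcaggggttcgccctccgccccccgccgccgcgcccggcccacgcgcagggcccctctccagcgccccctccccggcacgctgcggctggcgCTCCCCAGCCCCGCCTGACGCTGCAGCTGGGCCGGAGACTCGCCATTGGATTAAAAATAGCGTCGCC
USP11: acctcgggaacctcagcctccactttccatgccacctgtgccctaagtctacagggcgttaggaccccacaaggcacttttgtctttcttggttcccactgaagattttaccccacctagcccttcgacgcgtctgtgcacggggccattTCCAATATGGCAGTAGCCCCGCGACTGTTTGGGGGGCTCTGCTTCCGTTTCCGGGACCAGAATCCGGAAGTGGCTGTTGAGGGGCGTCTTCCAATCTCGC

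The capitals cover 90 bases in USP47, 82 in USP3, 107 in USP14, 67 in USP13 and 100 in USP11. Their content of G and C ran from 60.0% in USP11 to 70.7% in USP3. Cytidine made up 38.3% of them in USP14, 37.3% in USP13, 30.5% in USP3, 30% in USP47 and 28% in USP11, in stretches too short to set against the full windows. Over the whole 250 bases it made up 43.6% in USP14, 45.6% in USP13, 30.4% in USP3, 31.2% in USP47 and 32.4% in USP11, beside a median of 30% over 22156 windows of 250 bases before the annotated starts of all protein-coding genes. The motif CNNCNNCNNCNN, a C followed by any 2 bases and repeated, has been associated with ac4C, and it was searched in these windows with overlapping matches counted. In the capitals it matched 2 times in USP14 and USP13, 1 time in USP47 and not at all in USP3 and USP11. In the whole windows it matched 20 times in USP13, 15 in USP14, 4 in USP47, and 2 in both USP3 and USP11, beside a median of 3 over all windows. It is a common pattern, present in 76.2% of all windows on the strand of the gene, 78.4% on the other strand and 92.1% on either, so a match describes the sequence and marks no site. USP35 and USP10 also had such a peak in all 6 libraries, reaching 49 and 22 bases before the start. That of USP48 reached furthest, 192 bases before the start, and its sequence is not printed because USP48 had no entry in the promoter table.

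Part of the USP genes had peaks in the lists. Peaks were listed in 1 or more libraries for 42 of the 76 genes, or 55.3%, and in all 6 for 28, or 36.8%. Over all 19974 protein-coding genes the numbers were 12092, or 60.5%, and 5892, or 29.5%. Among the 50 single USP genes the numbers were 41 and 27, and USP6NL had peaks in all 6 libraries. No peak lay in the span of any of the 25 USP17L copies, near-identical repeats on chromosomes 4 and 8 that short reads cannot tell apart, and their lack of peaks is no measurement of their RNA. The other 9 genes without a peak were USP34, USP53, USP38, USP44, USP50, USP29, USP16, USP51 and USP26. USP26 and USP29 are known mainly from the testis and from an imprinted locus, whereas USP34, an AXIN-binding enzyme of the WNT pathway, has a span of 283625 bases and was still without a peak. Gene length and the number of peaks were weakly related across the 50 single USP genes (Spearman's rho 0.15, a description across genes that share the same libraries), and the same rho was 0.29 across all protein-coding genes.

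The number of peaks in USP genes followed the size of the list. The control libraries had 63, 88 and 75 peaks in USP genes and the knockdown libraries 110, 58 and 67. The 2 groups overlapped, with knockdown replicate 1 highest and knockdown replicate 2 lowest of all 6. The control mean of 75.3 ± 12.5 and the knockdown mean of 78.3 ± 27.8 (SD, n = 3 each) were 3 peaks apart, a difference that became -12.8 without knockdown replicate 1. As a share of all peaks of the library, USP peaks made up 0.345%, 0.389% and 0.374% in the control and 0.383%, 0.324% and 0.352% in the knockdown libraries. These shares overlapped as well, and their means of 0.369% ± 0.022 and 0.353% ± 0.029 (SD, n = 3 each) differed by less than 1 SD of either group. The typical strength of the peaks was also alike, since the median USP peak stood between the 37.5 and the 47.0 percentile of its own library by score, with both extremes among the control libraries.

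**Figure D1:**
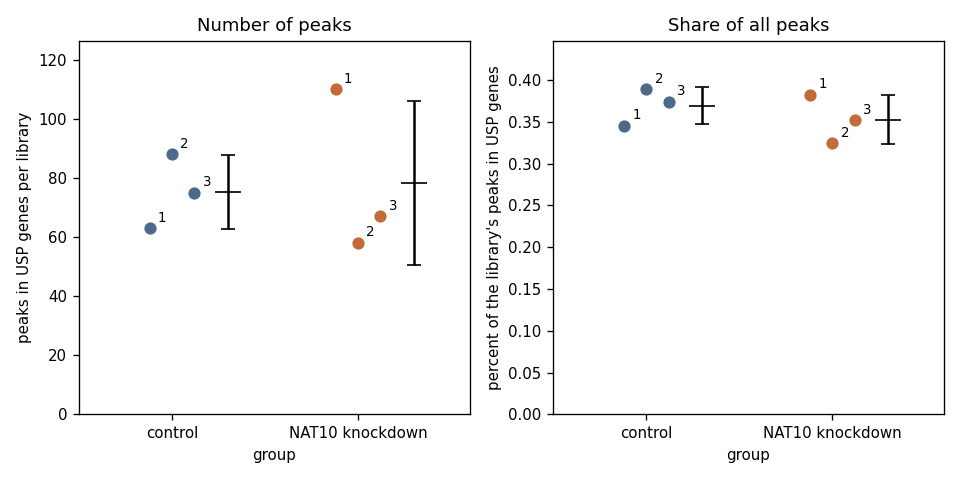
Number of peaks in USP genes (left) and their percentage of all peaks of the library (right) in the 3 control and 3 NAT10-knockdown libraries. Points are libraries labelled by replicate number, and the bars beside them are the mean ± SD. Knockdown replicate 1 stands highest on the left with 110 peaks, whereas its share of 0.383% lies inside the range of the control libraries.

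The peaks were unevenly spread over the family. The 10 genes with the most peaks held 47.5% of the 461 peaks in USP genes. USP36, a nucleolar enzyme that supports ribosome production and stabilizes MYC, led with 7, 8 and 9 peaks in the control and 11, 7 and 8 in the knockdown libraries, which is 10.8% of all USP peaks. USP20, which acts on HMG-CoA reductase and on recycling receptors, came next with 3, 7 and 7 against 9, 3 and 5 peaks. Both genes had overlapping groups, with means of 8 ± 1 and 8.67 ± 2.08 peaks in USP36 and 5.67 ± 2.31 and 5.67 ± 3.06 in USP20 (SD, n = 3 each).

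The other frequent genes had between 1 and 6 peaks in each library. USP39, a catalytically inactive member that works in the spliceosome, had 2, 4 and 2 peaks in the control and 5, 3 and 3 in the knockdown libraries. USP35 had 3 peaks in every library except knockdown replicate 1, which had 4. USP6NL, which switches off the GTPase RAB5, had 4, 3 and 2 against 4, 3 and 3. None of these genes separated the groups. USP43 varied most between replicates, from 1, 6 and 3 peaks in control to 5, 1 and 2 in knockdown libraries, and its high values fell on control replicate 2 and knockdown replicate 1, the libraries with the most peaks overall. USP22, the deubiquitinase of the SAGA chromatin complex, had 2, 3 and 4 against 2, 2 and 3 peaks, and USP49, which acts on histone H2B, had 1, 2 and 3 against 4, 2 and 2. At the steady end, 4 genes had the same number in all 6 libraries, with 2 peaks in USP25 and 1 peak each in USP10, USP45 and USP9X.

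By role, every group had at least 1 gene with a peak. Over all protein-coding genes, 60.5% had a peak and 29.5% had peaks in all 6 libraries. Among the genes of DNA damage and p53 control, 7 of 7 had a peak and 6 had peaks in all 6 libraries, with 7 to 12 peaks per library in the group. This group holds USP7, USP1, a partner of WDR48 in DNA repair, and USP10, which binds the stress granule protein G3BP1. Histone deubiquitinases had peaks in 7 of 10 genes and in 5 across all 6 libraries. Of the genes that act on endosomes, the ER, the Golgi apparatus and mitochondria, 7 of 7 had a peak and 5 had peaks in every library, whereas USP8, which sorts growth factor receptors at the endosome, had 1 peak in control replicate 2 alone. All 3 genes of ubiquitin recycling and the proteasome, USP5, USP13 and USP14, had peaks in all 6 libraries. Among genes tied to growth factor, TGF-beta and WNT signaling, 8 of 9 had a peak but 3 had peaks in all 6 libraries. The others with a peak, USP2, USP46, USP12, USP15 and USP11, had it in 1 to 5 libraries by the midpoint rule. In USP11 this came from the peak at the gene start, which all 6 libraries had but whose midpoint lay inside the gene in 3 of them. USP2, USP8, USP46 and USP54 each had peaks in 1 library, control replicate 2 in every case. Among genes of other roles, 8 of 13 had a peak and 5 had peaks in all 6 libraries. USP18, of the interferon group, had peaks in 5 libraries.

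Knockdown and control libraries were first compared by presence. A gene was called when its peaks occurred in 3 of 3 libraries on one side and 0 of 3 on the other, and 1 of the 42 USP genes with a peak met this in the control direction and 0 in the knockdown direction. Over all 12092 genes with a peak, 0.331% were called in the control and 0.364% in the knockdown direction, and a single gene is too few to set a share against these. The gene was USP47, with 1, 2 and 1 peaks in the control and 0, 0 and 0 in the knockdown libraries. Presence in 3 of 3 against 0 of 3 libraries gave p = 0.1 (two-sided Fisher's exact test), the smallest p that 3 against 3 allow.

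The USP47 call came from 1 short region inside the gene. It lies at chr11:11880177-11880380 (GRCh38), 38259 bases from the 5′ end of the 119916-base gene, and the peaks of the 3 control libraries all started at the same base. Those peaks ranked low, at the 32.3, 11.7 and 35.1 percentile of their libraries. The strong peak at the start of USP47, printed above, was present in all 6 libraries at the 87.8, 89.5 and 86.2 percentile in the control and 92.7, 73.0 and 81.7 in the knockdown libraries. Its midpoint fell inside the gene span in control replicate 2 only, and just before the annotated start in the other 5 libraries. When a peak was given to a gene for any shared base, a choice made after the data were seen, USP47 had 2 peaks in each control and 1 in each knockdown library, and 0 USP genes met the presence criterion. USP47 RNA therefore carried a peak in both groups, and with the 50% of peaks that scored highest in each library USP47 was no longer called.

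The number of peaks per gene was compared next, with a gene called when the 2 groups did not overlap. USP47 was the only USP gene called, in the direction of fewer peaks in knockdown libraries, and 0 genes were called in the other direction. Over all genes with a peak, 1.57% had every knockdown number above every control number and 0.653% had every one below. The means in USP47 were 1.33 ± 0.58 in control and 0 in knockdown libraries (SD, n = 3 each, two-sided exact permutation test, p = 0.1, adjusted p = 1 over all 12092 genes by the Benjamini-Hochberg method). The mean number was higher in knockdown libraries in 16 USP genes, lower in 13 and equal in 13. Without knockdown replicate 1 it was higher in 7, lower in 23 and equal in 12, so the balance rests on that library. Without it the knockdown lists were also shorter than the control lists, with a mean difference of -1846 peaks. The split over all genes was not taken in that setting. With all 6 libraries, 44.7% of all genes with a peak were higher and 31.9% lower in knockdown libraries. The median difference was 0 peaks both there and in the USP genes.

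Among the genes with the largest differences upwards, USP4 had 1, 2 and 1 peaks in the control and 3, 2 and 5 in the knockdown libraries. USP4 acts on the type I receptor for TGF-beta and on splicing factors. The groups touched at 2 peaks, and the difference of 2.00 did not pass a test (two-sided exact permutation test, p = 0.2). USP6, a hominoid-specific oncogene, had 0, 0 and 1 against 2, 1 and 2 peaks. USP12, which works with WDR48 and WDR20, had 1, 1 and 0 against 3, 1 and 2. Both means were 1.33 peaks higher in knockdown libraries with overlapping groups, and neither difference passed a test (two-sided exact permutation test, p = 0.2 in USP6 and p = 0.3 in USP12, n = 3 each). USP32 had 1, 3 and 1 against 3, 3 and 2 peaks, and together with USP39 it had the next largest difference, 1.00 peak. USP6 and USP32 share long near-identical stretches, so reads placed in one may come from the other.

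Among the largest differences downwards, USP14 had 3, 3 and 2 peaks in the control and 2, 1 and 1 in the knockdown libraries, with 1 tie between the groups. The difference of means was -1.33 peaks (two-sided exact permutation test, p = 0.2, n = 3 each). Part of it lay at the gene start, where all 6 libraries had the peak but 2 of the 6 midpoints fell before the annotated start, and by any shared base the difference was -0.67. USP15, a relative of USP4 that acts on TGF-beta receptor signaling, had 2, 1 and 2 against 1, 0 and 1 peaks. USP48 had 2, 1 and 3 against 2, 1 and 1, and USP46, the close relative of USP12, had 0, 2 and 0 against none. These groups overlapped in every case. USP31 showed how 1 library can carry a gene, since it had 2, 1 and 1 peaks in the control and 5, 0 and 0 in the knockdown libraries.

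**Figure D2:**
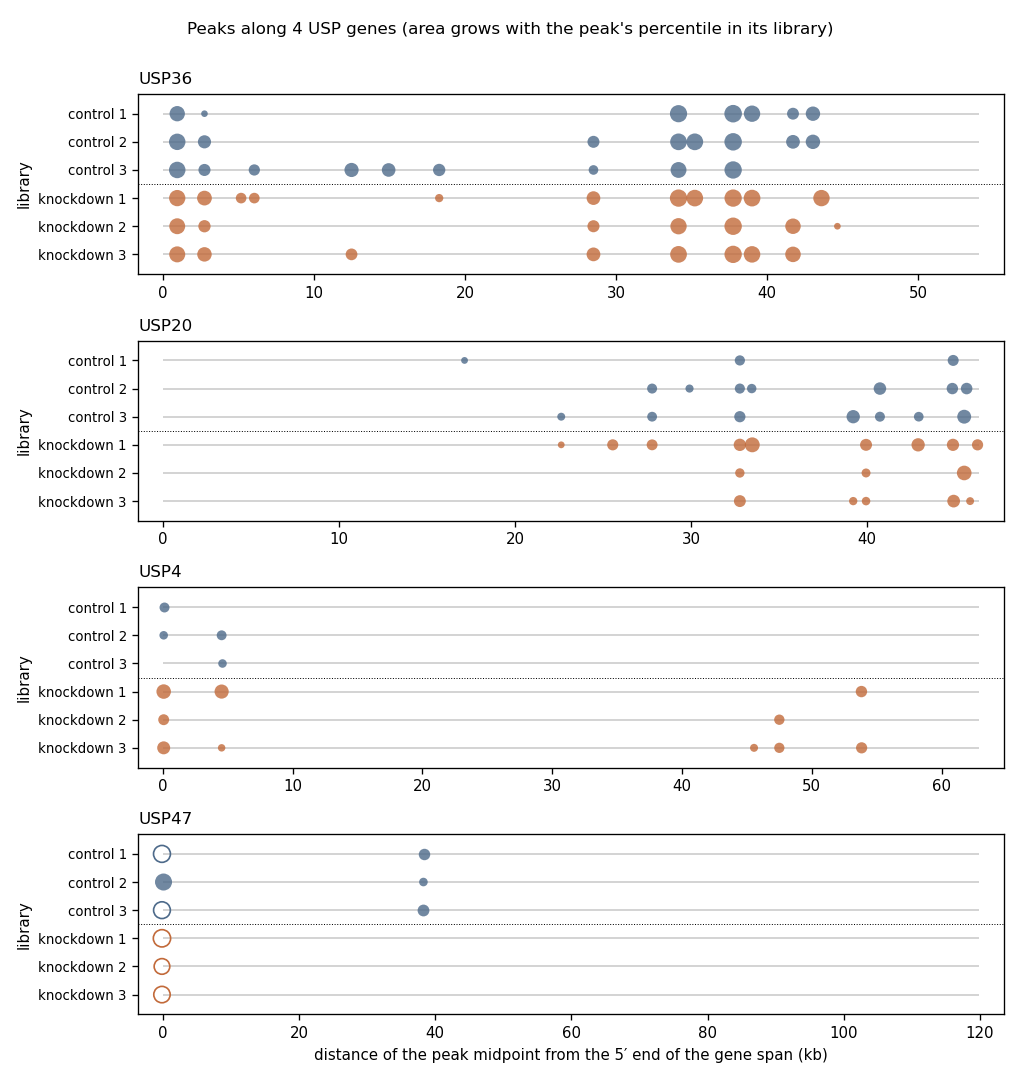
Peaks along USP36, USP20, USP4 and USP47, placed by the distance of their midpoint from the 5′ end of the gene span (kb), with 1 line per library and a point area that grows with the percentile of the peak's score in its library. Open circles in USP47 are peaks whose midpoint lies before the annotated start, and the 3 filled control points about 38 kb into the gene have no counterpart in the knockdown libraries.

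Peaks were then followed region by region, because a gene can keep its peaks while 1 of them changes. Overlapping peaks of any libraries were merged, which gave 154 regions in USP genes. Of these, 1 was present in all 3 control and no knockdown libraries and 3 in all 3 knockdown and no control libraries. Over all 41755 regions, 0.340% were called in the control and 0.819% in the knockdown direction. The control region was the one in USP47.

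The 3 knockdown regions lay in USP32, USP20 and USP18. That of USP32, a Golgi and endosome enzyme, covered chr17:60345481-60345608 with the same start and end in each knockdown library, 76871 bases from the 5′ end. Its percentiles were low, at 7.57, 26.1 and 14.2. That of USP20 covered chr9:129875310-129875479, again with identical boundaries, 6433 bases from the 3′ end, at the 36.6, 14.0 and 11.2 percentile. USP18, which removes the ubiquitin-like protein ISG15 and dampens interferon signaling, had its region at the very start of the gene, chr22:18149952-18150222, at the 31.7, 0.97 and 32.6 percentile. Its midpoint lay inside the gene in knockdown replicate 1 alone, so the peak numbers of USP18, 0, 1 and 1 in the control and 2, 1 and 1 in the knockdown libraries, overlapped. By any shared base they were 0, 1 and 1 against 2, 2 and 2. The called regions thus belonged to weakly ranked peaks, none of them above the 36.6 percentile of its library, and each of these genes also had other regions that were present in both groups. Reads of USP18 may be shared with its near-copy USP41, which was not among the protein-coding genes used here. With the same number of top-scored peaks taken from each library, 0 of the USP regions were called.

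Regions present in every library were more numerous than called ones. Peaks in all 6 libraries were found in 35 of the 154 regions, or 22.7%, beside 22.02% of all regions. A further 50 regions were found in 1 library, and 21 of those were in knockdown replicate 1. The 35 regions lay in 26 genes. Of the 34 that had exactly 1 peak in each library, 22 had the same start and the same end in all 6 lists, which is 64.7%, beside 72.3% of all such regions.

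Regions shared by all libraries sat near the 5′ end more often than those of 1 library. Within 1 kb of the 5′ end of the gene lay 16 of the 35 regions found in all 6 libraries, or 45.7%, against 3 of the 50 found in 1 library, or 6%. The same contrast was present over all protein-coding genes, at 34.0% and 9.48%, so it is not particular to the USP genes. Such 5′ regions in all 6 libraries were found in 16 genes, and in 27 genes in at least 1 library. Counted by peaks, 27.5% of USP peaks and 23.5% of all peaks lay within 1 kb of the 5′ end. Within 1 kb of the 3′ end lay 3.04% of USP peaks and 7.36% of all peaks. The USP genes with peaks are somewhat longer, with a median span of 64.9 kb over their peaks beside 46.7 kb over all peaks, and whether that accounts for the difference at the 3′ end was not tested. Exons and coding sequences were not used here.

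**Figure D3:**
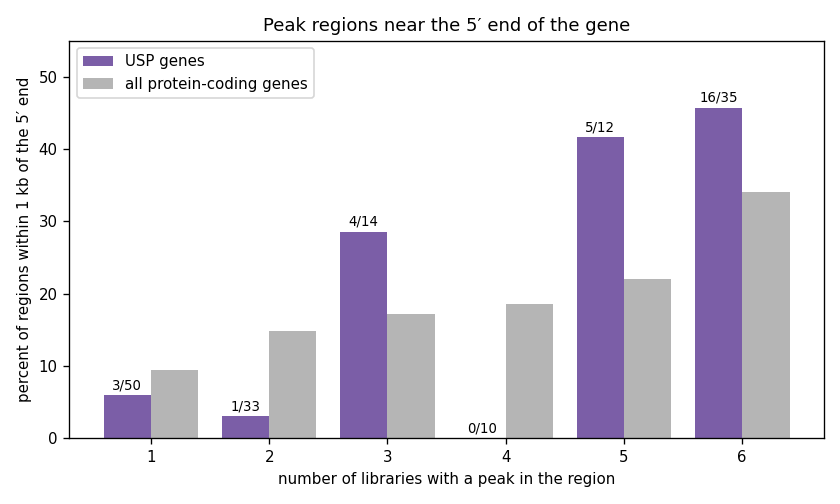
Percentage of merged peak regions that lie within 1 kb of the 5′ end of their gene, by the number of libraries with a peak in the region, in USP genes (purple, with counts above the bars) and in all protein-coding genes (grey). The share is highest for regions found in all 6 libraries, at 45.7% in USP genes and 34.0% in all genes.

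The strongest of the stable peaks reached the ceiling of the score. The score has many peaks at exactly 3100, and 5 USP genes, USP24, USP19, USP7, USP36 and USP9X, had a peak at or above it in all 6 libraries. In USP7 it lay 560 bases from the 5′ end, in USP9X, a large X-linked enzyme, 427 bases and in USP24 412 bases. That of USP19, an ER-anchored enzyme, lay 1668 bases from the 5′ end, and that of USP36 lay deep in the gene, 37757 bases from the 5′ end at chr17:78803385-78803978. USP39 had a peak at the ceiling in 5 of 6 libraries, 13442 bases from its 5′ end. These genes cannot be ordered among themselves, because tied scores carry no order. The highest score in a USP gene, 3202 in knockdown replicate 1, belonged to the USP22 peak 567 bases from the 5′ end. That peak was present in all 6 libraries. It scored 3100 in knockdown replicate 2 and less in knockdown replicate 3 and the control libraries.

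USP36 and USP20 differed in where their peaks lay. USP36 had 14 regions, 4 of them in all 6 libraries, at 944, 2748, 34141 and 37757 bases from the 5′ end of its 54059-base span. The strong ones near the 3′ side stood between the 75.6 and the 96.0 percentile in every library, whereas the one at 2748 bases ranged from the 0.78 to the 63.5 percentile. USP20 had 12 regions, 2 of them in all 6 libraries, at 32769 and 45513 bases of 46371, and no peak in the first 17 kb. The highest-scored USP20 peak stood between the 28.7 and the 65.2 percentile of its library. USP13 was different again, with its only region shared by all libraries 55 bases from the 5′ end.

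Finally, the rank of the highest-scored peak was compared in the 28 USP genes with a peak in all 6 libraries. The groups did not overlap in 2 of them, 1 in each direction, beside 4.89% of 5892 genes with knockdown above control and 4.60% with knockdown below. In USP4 the highest peak stood at the 20.7, 20.2 and 11.4 percentile in the control and the 60.8, 27.9 and 45.7 percentile in the knockdown libraries. Every knockdown library was above every control library, with means of 17.4 ± 5.2 and 44.8 ± 16.5 (SD, n = 3 each, two-sided exact permutation test, p = 0.1, adjusted p = 0.672 over 5892 genes). In USP13 it stood at the 56.1, 70.8 and 61.3 percentile in the control and the 28.1, 49.3 and 40.8 percentile in the knockdown libraries. Every knockdown library was below every control library, with means of 62.7 ± 7.4 and 39.4 ± 10.7 (SD, n = 3 each, two-sided exact permutation test, p = 0.1, adjusted p = 0.672 over 5892 genes). Neither result passed the adjusted test, 3 against 3 libraries cannot give a p below 0.1, and 1 gene in each direction is near the background share. With equal numbers of top-scored peaks per library neither gene still had a peak in all 6 libraries, so neither could be compared by rank.

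The peak behind these ranks was not always the same one. In USP4 the knockdown values came from a region 55 bases from the 5′ end, present in all 3 knockdown libraries and in control replicates 1 and 2. The values of control replicates 2 and 3 came from another region, 4520 bases from the 5′ end. At the 5′ region itself the percentiles were 20.7 and 11.3 in the control and 60.8, 27.9 and 45.7 in the knockdown libraries. In USP13 the highest peak was that at the gene start in 4 libraries, but in control replicate 2 it lay 28901 bases and in knockdown replicate 1 77176 bases into the gene. At the start region the percentiles of USP13 were 56.1, 63.9 and 61.3 in the control and 6.86, 49.3 and 40.8 in the knockdown libraries, again without overlap. Over the 28 genes the median difference, knockdown minus control, was 1.08 percentile points, beside -0.27 over all 5892 genes.

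**Figure D4:**
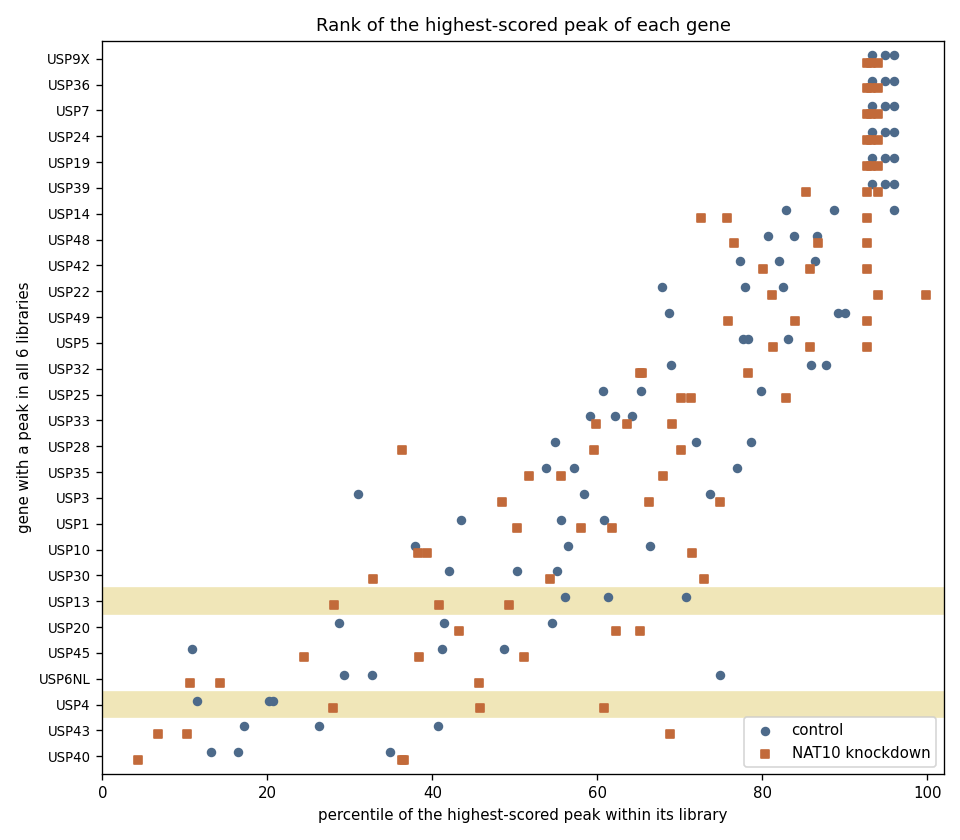
Percentile of the highest-scored peak within its library for the 28 USP genes with a peak in all 6 libraries, with circles for control and squares for NAT10-knockdown libraries. The shaded rows are USP4, where the knockdown libraries stood at 27.9 to 60.8 against 11.4 to 20.7 in control, and USP13, where they stood at 28.1 to 49.3 against 56.1 to 70.8.

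Some related USP genes had peaks alike and others did not, as a description without a test. Both relatives had peaks in all 6 libraries in USP5 and USP13, USP20 and USP33, USP25 and USP28, and USP36 and USP42. USP26 and USP29 had none, whereas their relative USP37 had 2, 1 and 0 peaks in the control and 1, 1 and 1 in the knockdown libraries. USP35 had peaks in every library and its relative USP38 in none, and USP45 had 1 peak in every library and USP16 none. USP20 had 3 to 9 peaks and USP33 had 1 or 2. In the SAGA-linked group USP22 had peaks in all 6 libraries, USP27X in 3 and USP51 in none. USP22 and USP27X are similar in sequence, so reads may be divided between them.

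Genes of other deubiquitinases and of USP partners were listed as well. Of 37 deubiquitinases outside the USP genes, from the UCH, OTU, Josephin, JAMM and MINDY families with CYLD, PAN2 and ZUP1, peaks were listed for 30 in 1 or more libraries and for 16 in all 6. None of them met the presence criterion or had peak numbers that did not overlap, and OTUD4 and STAMBPL1, of the 16 that could be ranked, had a higher top rank in every knockdown library, beside the 4.89% of all ranked genes given above. No adjusted p of a rank was below 0.672 over all genes (two-sided exact permutation test). OTUD7B, an OTU enzyme that acts on TRAF3 and growth factor receptors, had the most peaks, with 5, 6 and 7 in the control and 7, 5 and 7 in the knockdown libraries. TNFAIP3, the brake on NF-kappaB also called A20, had 2, 4 and 3 against 6, 1 and 3. Of 11 cofactors of USP enzymes, 9 had a peak and 5 had peaks in all 6 libraries, and none was called in any of these comparisons. Among them, GMPS, the partner of USP7, had 2, 1 and 2 peaks in the control and 2, 2 and 2 in the knockdown libraries, and ATXN7, which anchors the USP22 module to SAGA, had 3, 3 and 2 against 4, 3 and 4.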

How the data were processed

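Peaks of 6 ac4C immunoprecipitation libraries of SW620 cells were used, 3 control and 3 NAT10 knockdown, grouped by the titles of the samples. The authors deposited 1 peak list per library, limited to mRNA, with positions on GRCh38 as the submitters' processing notes name it, a strand and a score. The deposited score ran from 50 to 3233 and was used only as a percentile rank within a library. Peak names have the form of the caller MACS. Its version and settings, the aligner and the annotation are not given in the sources used here. The lists hold no counts, so no interval or detection limit could be given. The 6 input libraries were not used here.

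Spans came from the RefSeq gene table of GRCh38.p14. Strand came from the promoter table for 40 USP genes and, for 8 more, from the strand that all of their 6 or more peaks shared. This way of finding strand gave the tabulated strand in 99.3% of 9359 genes with a known one. The remaining 28 genes held no peak on either strand. Merged regions joined peaks overlapping by at least 1 base on a strand. Single genes were compared by two-sided exact permutation tests with Benjamini-Hochberg adjustment. The adjustment ran over the 12092 genes with a peak for peak numbers and over the 5892 with peaks in all 6 libraries for ranks. Presence was compared by Fisher's exact test without adjustment.

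Genes named are those meeting a criterion, the 10 with the most peaks, the 5 with the largest difference of mean peak number each way with ties, the largest difference in rank each way, and those without a peak. Others, such as USP18, USP31 and USP11, were named for a role or region after their values were seen. The genes, lists and comparisons were chosen with earlier results of these data known. Alternatives were the top 50% of peaks, equal numbers of top peaks (17877), either strand, 1 gene only, USP symbols without USP6NL and USP17L, a difference of at least 2 libraries, 50% coverage of a region, a replicate block and each library left out. The code was tested on simulated data. Python 3.11.15, numpy 2.4.6, pandas 2.3.3, scipy 1.17.1 and matplotlib 3.10.9 were used.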

Additional observations from a re-analysis of the deposited data

How the results depend on the processing

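The counts of called genes and regions are small and moved with the processing, and the cause was not tested. Shares over all genes or regions were taken for the main setting and the replicate block only. The counts under the other settings therefore have no background to be read against. With the top 50% of peaks of each library, 1 region was called in place of 4 and 0 genes by rank in place of 2, since USP4 and USP13 no longer had a peak in all 6 libraries. USP13 took the place of USP47 as the 1 gene called by presence and by number, with peaks in the control libraries only. With the same number of peaks per library (17877), 2 genes were called by number, USP47 and USP4, and 0 regions. By rank 3 genes were called there, USP5, USP22 and USP6NL. USP4 and USP13 could not be ranked there, because neither still had a peak in all 6 libraries. With any shared base, added after the data were seen, 0 genes were called by presence and 2 by number, USP47 and USP18. Presence in 2 or more libraries beyond those of the other group held for 3 genes, USP47, USP31 and USP6, and 50% coverage of a region gave 2 regions. With the replicate number as a block, 4 genes had all 3 paired differences in one direction, USP14, USP15 and USP47 downwards and USP6 upwards, beside 1.12% and 2.93% of all genes, and the difference of the totals stayed at 3. The same-numbered libraries did not deviate together over genes (correlations -0.18, -0.12 and -0.0027), so the numbers were not taken as pairs. With 1 library left out in turn, genes called by presence ranged from 1 to 2, by number from 1 to 5 and by rank from 2 to 11, and called regions from 5 to 7, where a group of 2 makes the criteria easier to meet. USP47, USP4 and USP13 kept their calls each time, but a gene called with 3 against 3 libraries cannot lose its call this way. Up to 5 of the genes then called by rank were those at the score ceiling in all 6 libraries. USP39, at the ceiling in 5 libraries, was called beside them without control replicate 3 and without knockdown replicate 2. The order of such tied scores has no meaning. The difference of the totals ranged from -12.8 without knockdown replicate 1 to 13.2 without knockdown replicate 2. Either strand, peaks in 1 gene only and membership without USP6NL and USP17L left the counts of called genes and regions as they were, while the difference of the totals was 3.33 on either strand and 2.67 without USP6NL and USP17L, and that of USP35 went from 0.33 to 1.33 on either strand. Depth is unknown, so a missing peak does not show that the RNA lacked ac4C.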
